A study of Mus musculus with 20 samples.

Results

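The matrix metalloproteinases (Mmp), the ADAMTS proteases (Adamts) and the tissue inhibitors of metalloproteinases (Timp) were followed in kidney RNA of mice given puberulic acid. Every gene whose symbol starts with Mmp, Adamts or Timp and a digit was taken, which gave 46 of the 55822 genes in the table: 23 Mmp, 19 Adamts and 4 Timp genes. The study measured poly(A) RNA of kidney tissue in 20 male C57BL/6J mice in 4 groups of 5. All were 8 weeks old when used, received 6 daily administrations from day 0 to day 5, and the organs were taken on day 7. Controls received phosphate-buffered saline (PBS), and the puberulic acid group received 1 mg of the compound per day. Puberulic acid is a mould product of the tropolone class. Whether an animal was dosed by mouth or into the peritoneum is not known, since the labels differ on the route. The remaining groups received a normal or a toxic lot of the supplement Choleste-Help. The names of 10 sample columns do not show which lot they hold, so those columns were not analysed here. Each library is taken as 1 animal, as its title numbers it.

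Mmp genes encode zinc-dependent endopeptidases that cut collagens, other matrix proteins and some cell-surface proteins, and most are secreted as inactive precursors. Adamts genes encode secreted relatives with thrombospondin repeats that trim procollagens and cut proteoglycans such as versican. Timp proteins bind the active site of these enzymes and block it, so the balance of proteases and inhibitors sets how fast matrix is turned over. In injured kidney this system is known for its part in basement membrane remodelling and fibrosis. The values here are RNA levels and say nothing of protease activity.

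The libraries held 18409877 to 24705587 estimated counts. Levels are given as CPM, the usual scaling of a gene's count to the size of its library, with library sizes adjusted by trimmed mean of M-values (TMM) factors. A floor of 3 counts stood at 0.158 to 0.195 CPM in control libraries and at 0.0964 to 0.128 CPM in puberulic acid libraries, which covers counting error only. Differences were tested with the quasi-likelihood test of edgeR with Benjamini-Hochberg adjustment over all 16266 genes that passed its filter on low counts, and a gene was called at an adjusted p-value under 0.05. All p-values measure the spread among these animals. Puberulic acid replicate 3 stood apart for fat and bladder-lining markers. It had 130 CPM of Cfd and 20.3 CPM of Adipoq, 2 fat cell genes that were at 1.75 CPM or less and 0.570 CPM or less in every other library. Its level of the uroplakin gene Upk1a was 10.3 CPM, against 0.693 to 3.37 CPM elsewhere. Puberulic acid replicate 1 stood apart for several tubule markers, given with the marker lists at the end.

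Of the 46 genes, 31 passed the filter, and 21 of these were called. Higher levels with puberulic acid were called for 18 genes (58.1% of those tested) and lower levels for 3 (9.68%). Among all genes tested, 65.3% were called, 34.2% higher and 31.1% lower. The share called in either direction (67.7%) was thus close to that of all genes, and the split by direction was not. The median log2 fold change was 1.02 over the 31 genes and 0.05 over all genes tested. Total-count scaling, which leaves the TMM factors out, moved these medians to 1.54 and 0.56, with 24 of the 31 called higher and 2 lower, against 56.4% higher and 15.5% lower over all genes. All 18 genes called higher kept their sign with total-count, median-of-ratios and upper-quartile scaling. Total-count and upper-quartile scaling move the median of all genes upward (to 0.56 and 0.14), so a sign could hardly change there. With median-of-ratios scaling, the Mmp28 call was lost (edgeR adjusted p = 0.0510). The filter asks for 0.4865 CPM in 5 libraries. No control reached it for Mmp3, Mmp7, Mmp10 and Adamts4, and fewer than 5 controls did for another 7 (Adamts12, Mmp9, Mmp12, Mmp13, Mmp19, Mmp24 and Timp1), so these 11 passed only with the help of treated animals. Of them 10 were called higher, so the counts and medians over tested genes are a description and no support. Among the 20 that all controls reached, 8 were called higher and 3 lower, against 34.2% and 31.1% of all genes tested. The higher share there was nearer to that of all genes. The matching share over all genes that every control reached was not computed, so a different split by direction was not tested. For 16 of the 31, every treated animal lay on one side of every control, which held for 50.1% of all genes tested. Of these, 14 were higher (26.1% of all genes) and 2 lower (24.0%). A called log2 fold change of at least 1.5 in size was found for 12 higher members (13.1% of all genes) and 2 lower ones (6.92%). Without puberulic acid replicate 1, 18 members were called higher and 3 lower, and without replicate 3, 15 and 3.

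**Figure D1:**
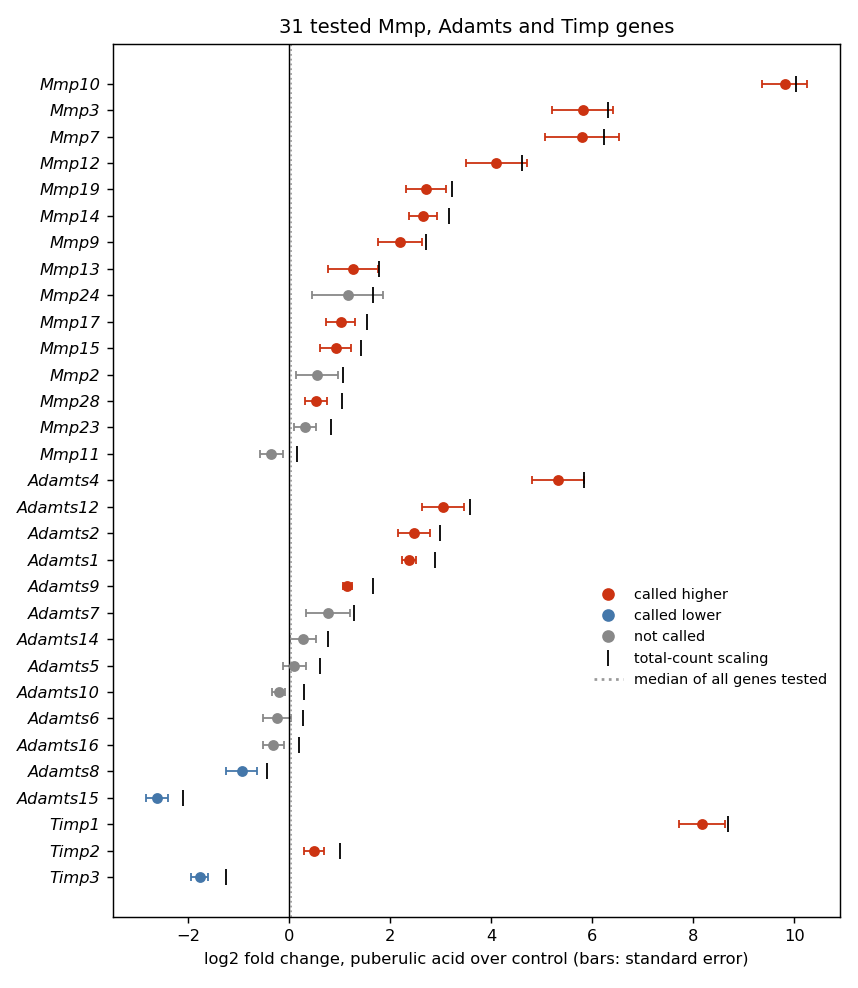
Log2 fold change of puberulic acid over control (x axis) for each of the 31 tested genes, as points with standard errors. Red points were called higher, blue lower and grey not called, black ticks give the value with total-count scaling, and the dotted line is the median of all genes tested. Of the 15 Mmp genes, 11 were called higher and 0 lower, against 34.2% higher and 31.1% lower over all genes tested. Mmp3, Mmp7, Mmp9, Mmp10, Mmp12, Mmp13, Mmp19 and Mmp24 passed the filter only with the help of treated animals, so this count is no support. Timp1 lies at 8.18 and Timp3 at -1.77, and the Mmp10 value has no control counts behind it.

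The inhibitors moved in opposite directions. Timp1 rose 289-fold from levels near the floor, Timp3 fell 3.41-fold, and Timp2 was called higher by a small amount that did not hold without single animals. Timp1 (ENSMUSG00000001131), a secreted inhibitor of most soluble Mmp proteins and a well-known early gene of tissue injury, stood at 0.171, 0.264, 0.445, 0.499 and 0.714 CPM in control replicates 1 to 5. In puberulic acid replicates 1 to 5 it stood at 45.9, 92.5, 141, 175 and 145 CPM. The lowest treated animal was replicate 1, and it lay far above the highest control. The means were 0.419 ± 0.212 and 119.8 ± 50.9 CPM (SD, n = 5 animals each). Its log2 fold change was 8.18 ± 0.46 (SE, edgeR adjusted p = 5.48e-08). In bulk tissue, more RNA per cell cannot be told apart from more cells of an expressing type.

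Timp3 (ENSMUSG00000020044) encodes the inhibitor that binds to the matrix itself and that, unlike the other members, also blocks many ADAM and ADAMTS enzymes. It was by far the most abundant member in controls, at 1813, 1981, 1716, 1735 and 1430.05 CPM in replicates 1 to 5. With puberulic acid it stood at 694, 405, 457, 404 and 583 CPM. All treated animals lay below all controls, and replicate 1 kept the most. The log2 fold change was -1.77 ± 0.16 (SE, edgeR adjusted p = 2.09e-06), and it was -1.26 with total-count scaling. The fits that each left out 1 animal gave -1.93 to -1.71.

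Timp2 (ENSMUSG00000017466), which inhibits Mmp proteins and also helps Mmp14 to activate Mmp2 at the cell surface, was at 34.5, 44.1, 50.7, 60.9 and 51.4 CPM in the controls. In the treated animals it was at 57.1, 45.9, 66.9, 74.9 and 96.5 CPM, so the groups overlapped. Its log2 fold change was 0.50 ± 0.20 (SE, edgeR adjusted p = 0.0405). The call was lost in 7 of the 10 fits that left out 1 animal, with adjusted p-values up to 0.146. Without puberulic acid replicate 5, its highest animal, the log2 fold change was 0.31.

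Timp4 did not pass the filter on low counts. It had 0 to 6 counts in the controls and 14 counts, or 0.593 CPM, in puberulic acid replicate 3, where the other 4 treated animals had 0 to 2. Replicate 3 is the library with the fat markers, and their part in the Timp4 value was not tested. Timp1, Timp3 and Timp4 each lie inside an intron of a synapsin gene on the other strand. The library kit keeps strand, but whether counting used it is not given in the sources used here.

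**Figure D2:**
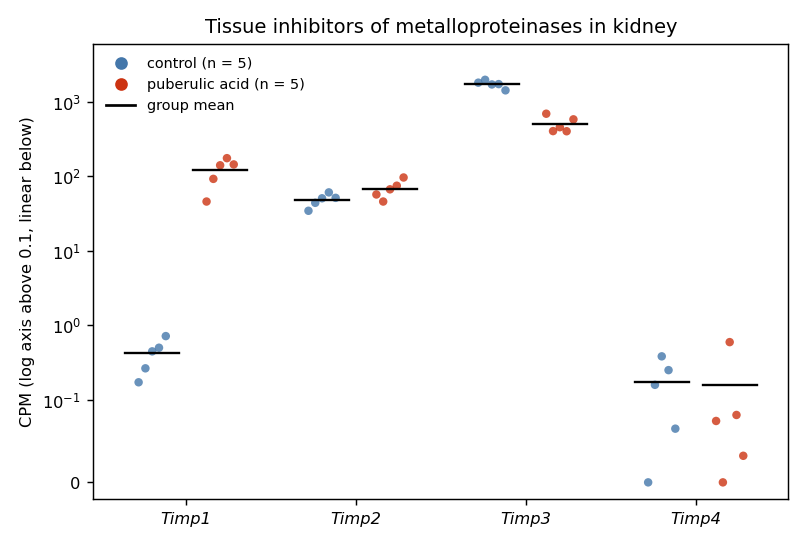
Level of the 4 Timp genes in CPM (y axis, logarithmic above 0.1 and linear below) in each control (blue) and puberulic acid animal (red), with group means as lines. Timp1 separates the groups upward and Timp3 downward, while Timp2 and Timp4 overlap.

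Levels of different genes were compared per kilobase of their longest coding transcript in GENCODE M21, an annotation that may differ from the one the authors used. In controls Timp3 averaged 367 CPM per kilobase, Timp2 13.0 and Timp1 0.474. With puberulic acid Timp1 averaged 136 CPM per kilobase (52.0 to 199) and Timp3 averaged 108 (85.5 to 147), so that their ranges overlapped. Next in the treated animals came Adamts1 at 29.2, Timp2 at 18.4, Mmp14 at 14.5 and Mmp12 at 7.07 CPM per kilobase. Each of these 4 overlapped its neighbour in that order, with ranges of 23.3 to 32.3 for Adamts1, 12.4 to 26.0 for Timp2, 6.35 to 21.1 for Mmp14 and 1.76 to 15.0 for Mmp12.

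The makeup of the family changed accordingly. On this per-kilobase scale, Timp3 made up 86.2% to 91.3% of the summed level of the 46 genes in controls and 20.8% to 53.8% with puberulic acid. Timp1 made up 0.0461% to 0.230% in controls and 19.0% to 48.3% in the treated animals. Replicate 1 was the treated animal with the most Timp3 and the least Timp1. The summed level of the 4 inhibitors was 9.43 to 14.6 times that of the 42 protease genes in controls, and 2.51 to 3.66 times with puberulic acid. These are ratios of RNA, given as a description of the libraries with no test.

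**Figure D3:**
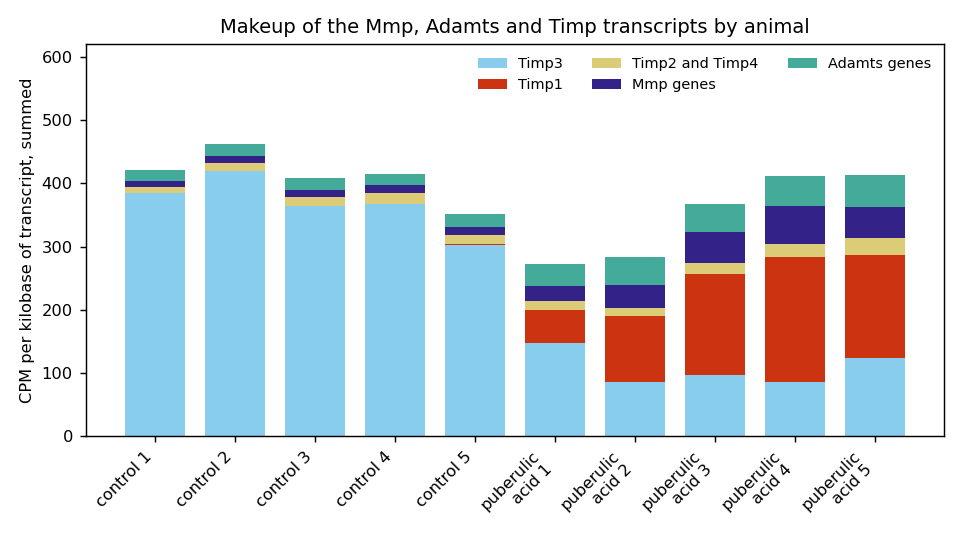
Summed level of the family per animal in CPM per kilobase of transcript (y axis), stacked by Timp3, Timp1, Timp2 with Timp4, the Mmp genes and the Adamts genes. Timp3 fills most of each control bar, and Timp1 takes 19.0% to 48.3% of each puberulic acid bar.

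A run of 10 Mmp genes stands side by side on mouse chromosome 9, with no other protein-coding gene of the RefSeq table between them: Mmp13, Mmp12, Mmp1b, Mmp3, Mmp1a, Mmp10, Mmp8, Mmp27, Mmp20 and Mmp7. Of these, 5 were tested and all 5 were called higher, where 34.2% of all genes tested were. None of the 5 had enough control libraries at the filter's minimum to pass without the treated animals, so this count is no support for a difference from the other members. Mmp promoters of this group are textbook examples of a TATA box preceded by a site for AP-1, the Fos and Jun transcription factor. The stretches below show these letters in the 5 called genes, except that the Mmp12 stretch holds TGAGTCA but not TATAAA. They are the 120 bases before the annotated start, from RefSeq on build GRCm38.p6, all on the plus strand, written 5′ to 3′. Capitals mark TGACTCA or its reverse complement TGAGTCA, and TATAAA. The stretches are chr9:7272394-7272513 for Mmp13, chr9:7347254-7347373 for Mmp12, chr9:7445702-7445821 for Mmp3, chr9:7502222-7502341 for Mmp10 and chr9:7691970-7692089 for Mmp7. Mmp12 and Mmp7 each have another annotated start in the table, and the 120 bases before those starts hold neither pattern.
Mmp13: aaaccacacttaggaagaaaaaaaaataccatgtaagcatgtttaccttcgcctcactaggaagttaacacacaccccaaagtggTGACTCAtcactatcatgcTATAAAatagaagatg
Mmp12: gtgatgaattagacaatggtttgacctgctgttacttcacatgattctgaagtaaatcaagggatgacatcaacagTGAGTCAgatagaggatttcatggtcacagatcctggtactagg
Mmp3: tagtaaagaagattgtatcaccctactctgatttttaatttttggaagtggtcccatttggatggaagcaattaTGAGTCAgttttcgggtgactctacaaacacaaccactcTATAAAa
Mmp10: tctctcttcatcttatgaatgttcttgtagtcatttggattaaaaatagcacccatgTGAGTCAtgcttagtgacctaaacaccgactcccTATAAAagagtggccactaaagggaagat
Mmp7: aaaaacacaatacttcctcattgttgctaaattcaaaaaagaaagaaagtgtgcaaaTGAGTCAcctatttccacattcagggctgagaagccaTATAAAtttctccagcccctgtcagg

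Promoter windows of 300 bases, from 250 before to 50 after a start, were found for 32 of the 46 members. All patterns were searched on both strands. TGACTCA was present for 7 of these 32 genes, and in 5.20% of the 32851 windows of all genes. All 7 lie in the run on chromosome 9: the 5 genes shown, and Mmp1a and Mmp1b, which had 0 counts in every library. None of the 22 members elsewhere with a window had it, Timp1 and Timp3 included. The called genes Adamts4, Adamts8, Adamts15, Mmp9, Mmp17 and Mmp19 had no window and were not searched. The letters TATAAA were present in windows of 11 of the 32 genes, including all 7 with TGACTCA, and in 13.6% of all windows; the Mmp12 copy lies just after the start and is not in the stretch shown. The PEA3 pattern AGGAAG was present for 15 of the 32 and in 35.4% of all windows. No match of a pattern shared bases with a match of another in these genes, and a match says only that the letters are there.

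Mmp10 (ENSMUSG00000047562), or stromelysin-2, which cuts several matrix proteins and can activate other Mmp precursors, had 0 counts in all 5 controls. With puberulic acid it stood at 4.75, 4.81, 6.44, 4.77 and 5.53 CPM. The treated animals lay close together and every one was above the floor. Their mean of 5.26 ± 0.74 CPM (SD, n = 5) is at least 29.2-fold higher than 3 counts in each control library (edgeR adjusted p = 5.69e-07). The fitted log2 fold change rests on no control counts and is not used.

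Mmp3, or stromelysin-1, its closest relative in the run, had 0, 0, 3, 1 and 3 counts in the controls. In the treated animals it reached 2.45, 3.66, 5.13, 5.83 and 8.35 CPM. Summed over libraries, 7 counts stood against 676, a ratio of 62.3 per unit of library (exact 95% interval 30.1 to 156, counting error only, edgeR adjusted p = 5.17e-06). Reads that fit both Mmp3 and Mmp10 would be divided by the counting program, so the split between them is uncertain.

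Mmp7, or matrilysin, an epithelial protease and a known urinary marker of kidney fibrosis, had 1, 0, 0, 0 and 1 counts in the controls. It stood at 0.594, 1.83, 3.22, 1.304 and 1.317 CPM in the treated animals. The summed counts were 2 against 208, a ratio of 67.1 (exact 95% interval 18.3 to 558, counting error only and not the spread among animals, edgeR adjusted p = 2.41e-05). Its highest animal was replicate 3, the library with the uroplakin and fat transcripts. Without that animal Mmp7 was still called (edgeR adjusted p = 3.97e-05).

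Mmp12, the macrophage elastase, was at 0.799, 2.21, 0.700, 0.499 and 3.18 CPM in controls and at 6.35, 21.5, 23.0, 54.2 and 22.5 CPM with puberulic acid. Replicate 1 was the lowest treated animal and replicate 4 the highest, and none reached down to the controls. The log2 fold change was 4.10 ± 0.61 (SE, edgeR adjusted p = 8.99e-05), or 17.2-fold. Among all genes tested 34.2% were called higher, and of 6 macrophage markers (Ptprc, Adgre1, Csf1r, Cd68, Itgam and C1qa) 4 were, with 2 not called. Their summed level was 68.8 to 129.8 CPM in controls and 137 to 383 CPM in the treated animals, also lowest in replicate 1 and highest in replicate 4. No marker of that list was at 0. Their part in the Mmp12 result was not tested.

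Mmp13, a collagenase, was at 0.249 to 2.51 CPM in controls and 1.52 to 5.50 CPM in the treated animals, so the groups overlapped. Its log2 fold change of 1.27 ± 0.50 (SE, edgeR adjusted p = 0.0412) kept its call in 4 of the 10 fits that left out 1 animal. Adjusted p-values in those fits reached 0.1204. Mmp8, the neutrophil collagenase, and Mmp20, an enamel protease, did not pass the filter. Mmp8 had 2 counts summed over the controls and 53 over the treated animals, a ratio of 17.1 (exact 95% interval 4.50 to 145), and Mmp20 had 1 and 25, a ratio of 16.1 (2.64 to 662), both intervals for counting error only. Mmp27 had at most 3 counts in any library.

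**Figure D4:**
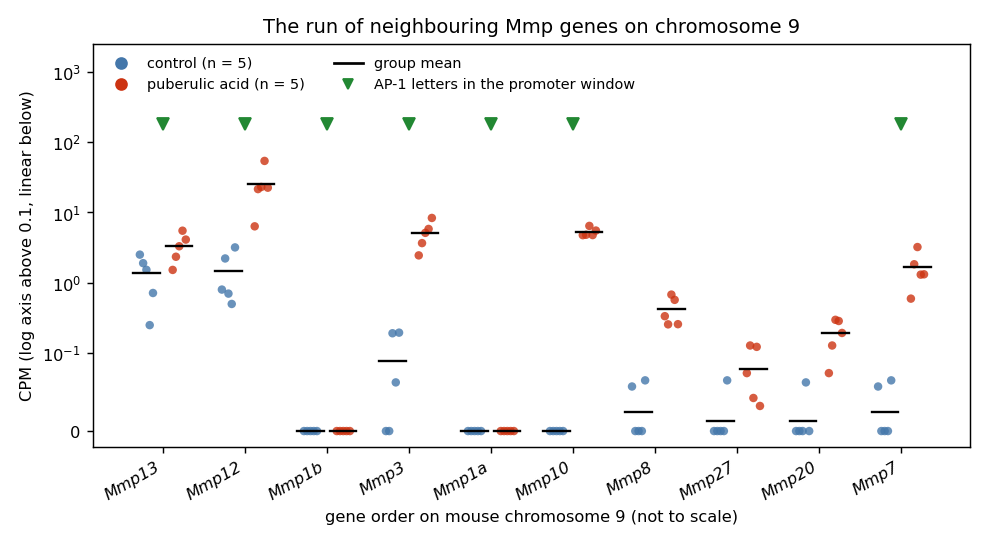
Levels of the 10 neighbouring Mmp genes in CPM (y axis, logarithmic above 0.1 and linear below), in gene order along chromosome 9 (x axis, not to scale), in each control (blue) and puberulic acid animal (red), with group means as lines. Green triangles mark genes with TGACTCA in the promoter window; Mmp10 stands at 0 in all controls, and Mmp1a and Mmp1b at 0 in all 10 libraries.

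Among Mmp14, Mmp15, Mmp17 and Mmp24, which encode membrane-anchored enzymes and passed the filter, Mmp14 had the largest log2 fold change. Mmp14 (ENSMUSG00000000957) encodes a cell-surface collagenase that activates the Mmp2 precursor. It was at 6.22, 8.28, 9.23, 7.35 and 6.36 CPM in controls and at 20.6, 39.8, 49.4, 68.3 and 57.0 CPM with puberulic acid. The lowest treated animal, replicate 1, was above every control. The log2 fold change was 2.65 ± 0.28 (SE, edgeR adjusted p = 5.54e-06), or 6.28-fold. Mmp15 and Mmp17, which encode other membrane-anchored enzymes, were also called higher, with log2 fold changes of 0.92 and 1.02 and adjusted p-values of 0.0186 and 0.00706 in edgeR.

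Mmp24 was not called, with 0 to 3.99 CPM in controls and 3.18 to 4.34 CPM in the treated animals (log2 fold change 1.16, edgeR adjusted p = 0.163). It was called without control replicate 4, its highest control (1.81, adjusted p = 0.0456), and with total-count scaling (1.67, adjusted p = 0.0492). Mmp25, known from white blood cells, and Mmp16 did not pass the filter. Mmp25 had 1 to 7 counts in controls and 9 to 72 in the treated animals. Mmp16 had at most 15 counts in any library.

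The gelatinases Mmp9 and Mmp2 cut denatured collagen and basement membrane collagen. Mmp9 was at 1.08, 0.369, 0.191, 0.249 and 0.390 CPM in controls and at 1.34, 1.66, 1.82, 3.22 and 2.60 CPM with puberulic acid. The groups did not overlap, though control replicate 1 came close to the lowest treated animal. The log2 fold change was 2.19 ± 0.44 (SE, edgeR adjusted p = 8.83e-04), and without control replicate 1 it was 2.79. Mmp2, a product of fibroblasts, was not called: it was at 1.20 to 6.30 CPM in controls and 2.38 to 7.71 CPM in the treated animals (log2 fold change 0.55 ± 0.42, SE, edgeR adjusted p = 0.266). Total-count scaling gave Mmp2 1.07 (adjusted p = 0.0403). Whether the gelatinases differed from each other was not tested.

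Mmp8, Mmp9 and Mmp25 are genes that neutrophils are known to express. The summed level of 6 such markers was 0.475 to 1.74 CPM in controls and 1.87 to 4.32 CPM in the treated animals. Ly6g was at 0 in all 10 libraries, and Mpo and Retnlg at 0 in all controls. The part of these cells in the 3 results was not tested. Of the 2 markers tested, Csf3r was called higher and S100a9 was not called.

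Mmp19, a protease of stromal and epithelial cells, was at 0.514, 0.158, 0.509, 0.499 and 1.04 CPM in controls and at 2.45, 2.13, 4.24, 4.32 and 4.50 CPM with puberulic acid. The groups did not overlap, and the log2 fold change was 2.71 ± 0.40 (SE, edgeR adjusted p = 8.90e-05). Mmp28, which encodes epilysin, was called by a narrow margin, at 0.53 ± 0.22 (SE, edgeR adjusted p = 0.0475), and held in 3 of the 10 fits without 1 animal. It was also lost with median-of-ratios scaling, with no filter and with the robust fit (adjusted p = 0.0510, 0.108 and 0.0510). Mmp11 and Mmp23 were not called. Mmp11, or stromelysin-3, averaged 4.72 ± 1.08 CPM in controls and 3.70 ± 0.98 CPM in the treated animals (SD, n = 5 in each group), and without puberulic acid replicate 4 it was called lower (log2 fold change -0.55, edgeR adjusted p = 0.0393). Mmp23 averaged 4.95 ± 0.66 and 6.16 ± 1.90 CPM, with a call under total-count scaling (0.83, adjusted p = 0.00571). Mmp21 had at most 3 counts in any library.

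**Figure D5:**
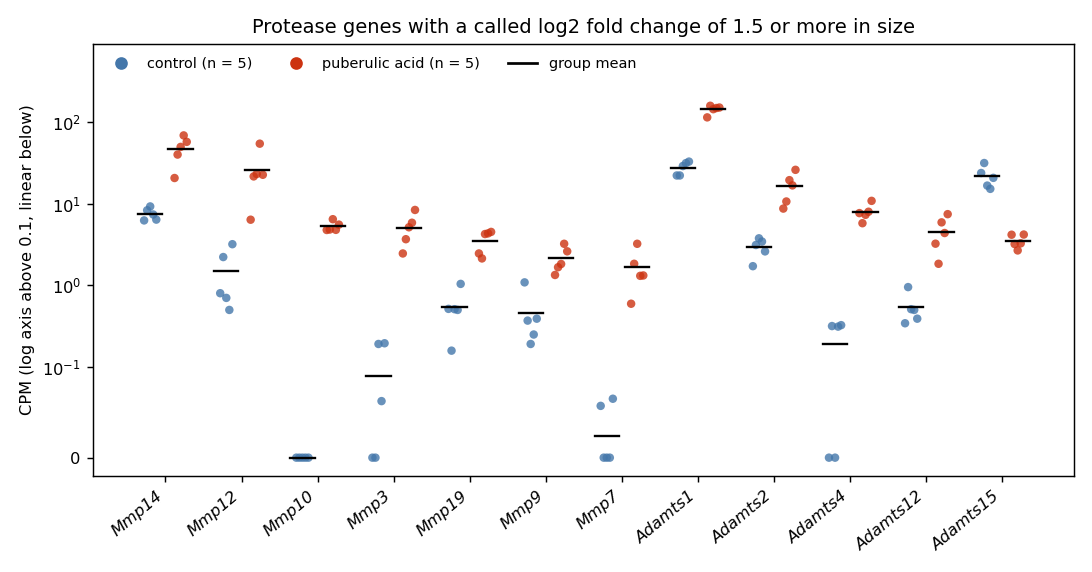
Levels in CPM (y axis, logarithmic above 0.1 and linear below) of the 12 protease genes called with a log2 fold change of at least 1.5 in size and a mean of at least 1 CPM in a group, in each control (blue) and puberulic acid animal (red), with group means as lines. Adamts15 is lower in all treated animals, and the other 11 genes are higher in all of them.

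Of the 19 Adamts genes, 13 were tested: 5 were called higher (38.5%, near the 34.2% of all genes tested), 2 lower (15.4%, against 31.1%) and 6 were not called. Those that cut proteoglycans held the most abundant members. Adamts1 (ENSMUSG00000022893), which cuts versican and is known as an inflammation-induced gene, was at 22.1, 22.1, 28.8, 31.3 and 32.7 CPM in controls. It was at 114, 158, 143, 148 and 150.03 CPM with puberulic acid. The treated animals lay close together, well above the controls, with a log2 fold change of 2.38 ± 0.14 (SE, edgeR adjusted p = 6.95e-08), or 5.20-fold.

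Adamts4, an aggrecanase named for cutting the cartilage proteoglycan aggrecan, had 0, 6, 0, 5 and 5 counts in controls. It was at 7.65, 5.75, 7.29, 7.95 and 10.8 CPM with puberulic acid, all far above the controls, none of which reached the filter's minimum (log2 fold change 5.33 ± 0.52, SE, edgeR adjusted p = 3.00e-06). Adamts9, a versican-cutting enzyme with a broad tissue range, rose in all treated animals, with means of 11.9 ± 0.76 CPM in controls and 26.4 ± 2.23 CPM after treatment (SD, n = 5 animals each). Its log2 fold change was 1.16 ± 0.09 (SE, edgeR adjusted p = 7.39e-07). Adamts5, the other major aggrecanase and the direct neighbour of Adamts1 on chromosome 16, was not called, at 13.4 to 20.6 CPM in controls and 11.3 to 27.0 CPM in the treated animals. The log2 fold change of Adamts5 was 0.11 ± 0.23 (SE, edgeR adjusted p = 0.699), and 0.62 with total-count scaling (adjusted p = 0.0352).

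Adamts15 (ENSMUSG00000033453), also a versican-cutting enzyme, went the other way. It was at 23.7, 31.4, 16.6, 15.1 and 20.6 CPM in controls and at 4.16, 3.19, 2.67, 3.26 and 4.18 CPM with puberulic acid. No treated animal reached the lowest control. The log2 fold change was -2.62 ± 0.22 (SE, edgeR adjusted p = 9.01e-07), a 6.14-fold lower level. Its neighbour on chromosome 9, Adamts8, was called lower (1.104 ± 0.460 CPM in controls and 0.577 ± 0.095 CPM after treatment, SD, n = 5 animals each). The Adamts8 log2 fold change was -0.94 ± 0.31 (SE, edgeR adjusted p = 0.0184). That call was lost without control replicate 2 (-0.72, adjusted p = 0.0611) and with total-count scaling (-0.43, adjusted p = 0.231). Adamts20 had at most 4 counts in any library.

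Among the enzymes that remove the N-terminal propeptide of fibrillar procollagens, Adamts2 was called higher. It was at 1.71, 3.11, 3.75, 3.43 and 2.60 CPM in controls and at 8.69, 10.6, 19.4, 16.7 and 25.9 CPM with puberulic acid. Replicates 1 and 2 were the lowest treated animals and still above every control (log2 fold change 2.48 ± 0.32, SE, edgeR adjusted p = 2.66e-05). Adamts14, which has the same activity, was not called, at 1.43 ± 0.19 and 1.73 ± 0.57 CPM (SD, n = 5 in each group), though total-count scaling gave a call (0.78, adjusted p = 0.0187). Adamts3 had too few counts to be tested (3 to 16 per library). The fibrillar collagen genes these enzymes act on, Col1a1, Col1a2 and Col3a1, were called higher with log2 fold changes of 4.14, 3.22 and 4.12.

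Adamts12, which cuts the cartilage matrix protein COMP, was at 0.342, 0.949, 0.509, 0.499 and 0.390 CPM in controls and at 3.23, 1.83, 5.89, 4.36 and 7.42 CPM with puberulic acid. The groups did not overlap, and the log2 fold change was 3.05 ± 0.42 (SE, edgeR adjusted p = 4.79e-05). Adamts7, its relative with the same substrate, was not called (0.77 ± 0.43, SE, edgeR adjusted p = 0.135), but it was with total-count scaling (1.282, adjusted p = 0.0199). Fibroblast and mural cell markers were read beside Adamts12 and Mmp14: of 6, 5 were called higher and Pdgfra was not called. The summed level of the 6 ran from 94.7 to 153 CPM in controls and from 325 to 1070.3 CPM with puberulic acid, and none was at 0. Their part in these results was not tested.

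Adamts6, Adamts10 and Adamts16 were not called, with log2 fold changes of -0.25, -0.21 and -0.31 that turned positive with total-count scaling (0.27, 0.30 and 0.20). Adamts6 and Adamts10 are associated with fibrillin microfibrils. Adamts13, which cuts von Willebrand factor, had 0 or 1 count in each control and 2 to 22 counts in the treated animals. Its summed counts of 1 and 49 give a ratio of 31.6 (exact 95% interval 5.41 to 1274, counting error only), while the treated animals ran from 0.0643 to 0.937 CPM. Adamts17 had at most 12 counts in any library, and Adamts18 and Adamts19 had at most 1.

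The 15 members outside the test could be fitted with no filter or, where counts allowed, with DESeq2. In both, Adamts13, Mmp8, Mmp20 and Mmp25 were called higher, where 21.9% of all genes were called higher with no filter and 27.7% with DESeq2. The edgeR adjusted p-values with no filter were 0.00236, 7.62e-04, 0.00680 and 3.19e-04. The other 11 were not called, had no adjusted p-value in DESeq2, or, for Mmp1a and Mmp1b, had no counts.

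Genes around the protease system were read from 3 lists, to be set against the 34.2% higher and 31.1% lower of all genes tested. Among 25 genes that regulate or accompany it, 20 were tested, 11 were called higher and 7 lower, with a median log2 fold change of 0.88. The thrombospondin gene Thbs1 had a log2 fold change of 2.85, the urokinase receptor gene Plaur 4.59 and the tissue plasminogen activator gene Plat 3.25, all called. Reck, which encodes a membrane-anchored Mmp inhibitor, was called lower at -0.73 (edgeR adjusted p = 0.0116), and the value was -0.21 with total-count scaling. The brush border metalloprotease genes Mep1a and Mep1b, which belong to the proximal tubule, fell with log2 fold changes of -2.22 and -2.78.

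Of 17 ADAM and ADAMTS-like genes, 14 were tested, 8 were called higher and 1 lower (median 0.99). Adam8, a leukocyte sheddase, had a log2 fold change of 4.51, Adam19 3.05 and Adam12 2.35. The broad sheddase genes Adam10 and Adam17 were called higher with 0.47 and 0.52. Of 25 substrate genes, 22 were tested, 15 were called higher and 3 lower (median 1.497). Versican, coded by Vcan, the substrate of several Adamts proteins, was called higher by a narrow margin (2.27, edgeR adjusted p = 0.0489). Vcan stood at 29.1 CPM in puberulic acid replicate 3, at 1.97 to 8.72 CPM in the other treated animals and at 0.264 to 8.70 CPM in controls. The 3 lower genes were Col4a3, Col4a4 and Col4a5, chains of the glomerular and tubular basement membrane, at -1.52, -1.63 and -0.88, while Col4a1 and Col4a2 were called higher at 1.705 and 1.497.

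Markers of other kidney cells were measured beside the changes in Timp3 and Adamts15. All 6 proximal tubule markers were called lower, and their summed level went from 33563 to 45172 CPM in controls to 5676 to 7444 CPM with puberulic acid. Lower calls were made for 3 of 4 loop and distal tubule, 3 of 4 collecting duct, 1 of 4 podocyte and 2 of 5 endothelial markers. Among all genes tested, 31.1% were called lower, so the podocyte and endothelial counts lay near that share. There was no higher call among these markers, and no marker of these lists was at 0 in a group. Puberulic acid replicate 1 stood apart in these lists. The loop transporter gene Slc12a1 was at 779 CPM in it and at 139.8 to 324 CPM in the other treated animals, and the proximal tubule transporter gene Slc34a1 was at 319 CPM against 51.2 to 85.4 CPM. The summed loop and distal level overlapped between the groups, at 3837 to 5721 CPM in controls and 3144 to 6315 CPM in the treated animals, highest in replicate 1. That animal was also the treated one with the most Timp3 and the least Timp1, Mmp12 and Mmp14. Without it the log2 fold changes of these 4 genes were -1.93, 8.36, 4.33 and 2.82. The summed endothelial level was 159.8 to 267 CPM in controls and 81.0 to 212 CPM in the treated animals. Which cells held the Timp3 or Adamts15 transcripts cannot be read from bulk kidney tissue, and the part of cell makeup in these results was not tested. Of 2 T and B cell markers tested, 1 was called higher. Of 5 urothelial markers, Krt5 was called higher and the 4 uroplakin genes were not called. Both haemoglobin genes were called lower, and the 4 fat markers did not pass the filter.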

How the data were processed

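The authors deposited 1 table of estimated counts, with 55822 genes and 20 columns, from kidney RNA. The submitters' processing notes name fastp 0.22.0, FastQC 0.12.1, MultiQC 1.28, Salmon 1.10.3, DESeq2 and build GRCm39. Per the labels' protocols, libraries came from a poly(A) isolation module and the NEBNext Ultra II Directional kit. The strand setting and the annotation used in counting are not given in the sources used here. Columns were matched to samples by name, with 0 taken as control and pa as puberulic acid. The names of 10 other columns do not show which supplement lot they hold, so they entered no step.

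Estimated counts were rounded, and genes were kept by edgeR's filterByExpr, which left 16266. Libraries were scaled by TMM factors and fitted with edgeR 4.0.16 (glmQLFit, robust off, limma 3.58.1, R 4.3.3), with 5 control and 5 puberulic acid samples and no covariate. Standard errors are the size of the log2 fold change over the square root of F. Symbols were matched for 51344 identifiers, which hold 99.29% of counts. Genes were given sample by sample if they were Timp genes, or if they were called with a log2 fold change of at least 1.5 in size and a mean of at least 1 CPM in a group; the 3 members highest in controls and those tested but not called were also named, and the members that did not pass the filter were given by their counts. The members and lists were chosen with earlier results of these data known. On tables simulated from the control means, the procedure recovered 76% of changes of 1 and 95% of changes of 2 on the log2 scale. That was among 15158 to 15196 genes, with 3.83% false calls. The 3 simulated tables held 300 changes of each size, only in genes with a control mean above 1 CPM, with the spread of the controls. These rates do not carry over to members under 1 CPM in controls. They also do not carry over to a comparison where 65.3% of genes tested were called. Alternatives were other scalings (median-of-ratios, upper-quartile, total-count), no filter, a filter of 1 CPM in 5 samples, a robust fit, DESeq2 1.42.0, dropping mitochondrial and the 10 most abundant genes, a replicate block, and leaving out each animal. Promoter windows and gene order came from RefSeq on GRCm38.p6 and transcript lengths from GENCODE M21; no coordinates of the deposited table were used. Figures were drawn with matplotlib 3.10.9.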

Additional observations from a re-analysis of the deposited data

Results flagged for a closer look

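In each group of 5, the highest or lowest animal was compared with its nearest neighbour for the members chosen for values by sample or not called, Timp4 included, and for the summed level of the family with and without Timp3; tested members called with small changes, apart from Timp2, were not searched. In 5 of the 55 groups of values searched, the gap exceeded the critical share of the range (0.71), where chance gives about 2.8. Mmp9 was highest in control replicate 1, at 1.08 CPM against 0.390 CPM in the next control. Adamts12 was highest in control replicate 2, at 0.949 CPM against 0.509 CPM. Adamts6 was lowest in control replicate 4, at 2.74 CPM against 5.48 CPM. Mmp23 was lowest in control replicate 2, at 3.80 CPM against 5.03 CPM. Timp4 was highest in puberulic acid replicate 3, at 0.593 CPM against 0.0815 CPM, in the library with the fat markers.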

How the results depend on the processing

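Of the 31 tested members, 17 kept their call and direction in every alternative that tested them, and 14 did not; of the 21 called, those were Adamts8, Mmp13, Mmp28 and Timp2 (the other 17 calls held in all 10 fits that left out 1 animal). Total-count scaling moved the all-gene counts from 5564 higher and 5058 lower to 9179 and 2526. It also reversed Adamts6 (0.27), Adamts10 (0.30), Adamts16 (0.20) and Mmp11 (0.16), none of them called, and called Adamts5 (0.62), Adamts7 (1.282), Adamts14 (0.78), Mmp2 (1.07), Mmp23 (0.83) and Mmp24 (1.67) higher. Adamts5 changed sign without single treated animals (-0.04 without puberulic acid replicate 4 and -0.0855 without replicate 5, and up to 0.23 over the left-out fits). Fits that left out 1 animal called 15 to 19 members higher and 2 to 4 lower, and 10104 to 11108 genes in all. The other alternatives called 16 to 24 members higher and 2 or 3 lower. Same-numbered samples did not deviate together (correlations from -0.17 to 0.04), so the numbers do not pair the animals; with the replicate block, 10325 genes and 16 members higher and 2 lower were called, with the calls of Adamts8 (adjusted p = 0.0774), Mmp13 (0.123) and Mmp28 (0.0947) lost. The fitted log2 fold changes of Mmp3, Mmp7 and Mmp10, with at most 3 counts in every control, are counted and plotted but are no bounds.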
